A study of Mus musculus with 4 samples.

Results

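The 8 genes described here, Col26a1, Ndnf, Tmem114, Csgalnact1, Acox2, Ciapin1, Nup133 and Lgmn, were picked from 27998 for their higher counts in defensin-rich crypt cells of mice without intestinal epithelial Slc7a5. A cell was called defensin-rich where gene symbols starting with Defa took 25% or more of its UMIs (unique molecular identifiers, the tags that mark single mRNA molecules). The choice thus rests on the contrast between genotypes in those cells, so the values of that contrast are given as a description with no test. Single-cell libraries were made with the 10x Genomics 3′ kit from live EpCAM-positive, CD45-negative cells sorted from small-intestinal crypts, 2 libraries for each genotype. Both genotypes carried Slc7a5 alleles with loxP sites around the first exon; the slc7a5 IEC-KO mice (IEC-KO) also carried villin-Cre, which is active in the intestinal epithelium and leaves other cells with the gene, and the slc7a5 fl/fl littermates (fl/fl) did not. The mice were 8 weeks old and matched for sex, and the villin-Cre line had been backcrossed to C57BL/6J. The 4 mice were not tied to the libraries, so a p-value between genotypes measures only the spread between libraries, which may be technical. For splits of cells within the 2 IEC-KO libraries, it measures only how far a difference varies between those 2 libraries, with the spread borrowed across genes.

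Paneth cells sit at the crypt base and release defensins, lysozyme and other granule proteins that shape the gut flora. They make large amounts of secreted protein and so lean on the endoplasmic reticulum and on a steady supply of amino acids, which SLC7A5 imports across the plasma membrane. When amino acids run short or proteins misfold, the transcription factor ATF4 raises a set of stress genes, of which the pseudokinase gene Trib3 is one. Try5 encodes a trypsinogen, a protein better known from the exocrine pancreas. The 8 genes have unlike roles: extracellular matrix and secreted factors (Col26a1, Ndnf), a membrane protein (Tmem114), sugar chain synthesis (Csgalnact1), peroxisomal oxidation (Acox2), iron-sulfur cluster assembly (Ciapin1), the nuclear pore (Nup133) and lysosomal proteolysis (Lgmn).

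Of 26498 cells, 2086 and 2005 were defensin-rich in the fl/fl libraries, and 2733 and 2985 in the IEC-KO libraries. Their median depth differed by genotype, at 46117 and 52170 UMIs a cell in fl/fl against 12569 and 18634 in IEC-KO. The defensin-rich cells of fl/fl therefore held 199786265 UMIs in all, and a gene missing there was missing at the greater depth. Between 92.0% and 94.9% of the defensin-rich cells of each library fell in Paneth-like clusters, and the most barcodes any 2 libraries shared was 132. Slc7a5 itself was counted higher in the libraries labelled IEC-KO (3.94 and 4.91 UMIs per 1000000 in defensin-rich cells) than in those labelled fl/fl (0.97 and 0.82). A 3′ tag lies outside the deleted exon, so this count does not check the genotype, and every direction given here rests on the labels of the libraries. Defensin-rich cells were 57.4% and 62.3% of the cells of the fl/fl and 27.3% and 30.95% of those of the IEC-KO libraries.

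Only 4 of the 8 genes were all but missing from the fl/fl defensin-rich cells: Col26a1, Ndnf, Tmem114 and Csgalnact1. Acox2, Ciapin1, Nup133 and Lgmn were counted there too, so for these the difference was one of level. Among all genes, 4 had at most 1 UMI in the fl/fl and at least 100 UMIs in the IEC-KO defensin-rich cells, and they were these 4. The genes had been chosen on this contrast and the cut-offs were not planned, so the match only describes them. In all, 12110 genes had at most 1 UMI in the fl/fl cells.

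Tmem114 encodes a membrane protein related to the claudins, the proteins of tight junctions, and of the 4 genes nearly missing in fl/fl it had the highest level in IEC-KO. In defensin-rich cells it had 0 and 1 UMI in the fl/fl libraries and 227 and 313 UMIs in the IEC-KO libraries, or 5.85 and 4.91 in CPM, the UMIs of a gene per 1000000 UMIs of all genes in the same cells. The genotypes did not overlap, and the ratio of summed counts was 1052, with a counting interval from 188 to 41626 that the single fl/fl UMI sets. Of the IEC-KO defensin-rich cells, 6.84% and 8.38% held at least 1 Tmem114 UMI, so most cells of the type gave none at this depth. With each cell thinned to 3500 UMIs, the shares were 1.98% and 1.94% in IEC-KO and 0% in both fl/fl libraries. The 250 bases upstream of its start (GRCm38.p6, minus strand, chr16:8425137-8425386, RefSeq) are printed because it is the only one of these 4 genes with a promoter entry; capitals would mark any of the motifs TGATGNAA, CAGCTG and TGACGTCA on either strand, and none was found.
Tmem114: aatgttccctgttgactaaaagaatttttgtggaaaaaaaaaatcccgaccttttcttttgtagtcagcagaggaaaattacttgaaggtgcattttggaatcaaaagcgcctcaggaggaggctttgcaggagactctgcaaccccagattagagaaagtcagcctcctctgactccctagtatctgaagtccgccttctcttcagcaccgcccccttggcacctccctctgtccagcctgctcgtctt

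Col26a1 encodes a collagen with an EMI domain, a part of the extracellular matrix. It had no UMI in either fl/fl library and 67 and 104 UMIs (1.73 and 1.63 CPM) in the IEC-KO defensin-rich cells. Against a floor of 3 UMIs over the fl/fl group, the level was at least 111-fold higher. Ndnf, a secreted factor first described in neurons, had no UMI in fl/fl and 53 and 97 UMIs (1.37 and 1.52 CPM) in IEC-KO, at least 97.4-fold higher on the same floor. Csgalnact1, the enzyme that starts chondroitin sulfate chains, had no UMI in fl/fl and 45 and 73 UMIs (1.16 and 1.15 CPM) in IEC-KO, at least 76.6-fold higher. All 3 were rare even in IEC-KO, in 1.65% to 3.25% of defensin-rich cells at full depth and in 0.48% to 0.66% at 3500 UMIs. The 0 counts of fl/fl allow a share of cells with a UMI of up to 0.144% and 0.150%. These intervals and floors cover counting error only.

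Nup133, a scaffold nucleoporin of the Nup107-160 complex, differed most among the 4 genes present in both genotypes. It had 113 and 102 UMIs in fl/fl defensin-rich cells and 1174 and 2469 in IEC-KO. In CPM this was 1.08 ± 0.14 in fl/fl and 34.5 ± 6.01 in IEC-KO (SD, n = 2 libraries), and the ratio of summed counts was 33.0 (28.8 to 38.1, counting error). Acox2, the peroxisomal oxidase of branched-chain fatty acids and bile acid precursors, had 150 and 139 UMIs in fl/fl and 761 and 1210 in IEC-KO, or 1.45 ± 0.17 and 19.3 ± 0.44 CPM. Its ratio was 13.3 (11.7 to 15.1).

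Ciapin1, also called anamorsin, serves the cytosolic assembly of iron-sulfur clusters. Its counts were 973 and 878 in fl/fl and 3325 and 4704 in IEC-KO, or 9.30 ± 1.24 and 79.7 ± 8.38 CPM, a ratio of 8.45 (8.03 to 8.89). Lgmn encodes legumain, a lysosomal protease that cuts after asparagine. It was the gene with the smallest difference, at 2256 and 2424 UMIs in fl/fl and 2963 and 4569 in IEC-KO, or 23.4 ± 0.24 and 74.0 ± 3.28 CPM. Its share of cells with a UMI at full depth overlapped between genotypes (62.1% and 65.3% against 58.1% and 68.6%), whereas at 3500 UMIs a cell it was 7.91% and 8.13% against 23.5% and 21.6%. For the other 3 genes of this group the shares at 3500 UMIs did not overlap either, Ciapin1 with 3.93% and 3.39% against 25.5% and 22.3%.

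These ratios depend on the scaling. In the fit of edgeR over all 12659 genes with TMM factors, which centre the bulk of genes, the log2 differences were 4.32 for Nup133, 3.05 for Acox2, 2.42 for Ciapin1 and 0.97 for Lgmn. Scaled by library size only, the median log2 difference of all genes tested was 0.68 rather than 0.00, and the ratios of counts above carry this shift. In that contrast 42.4% of all genes tested were called and 21.2% were called higher, among them all 8 genes, which were chosen for it. Both IEC-KO libraries lay above both fl/fl libraries in CPM for 62.8% of 17809 genes.

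**Figure D1:**
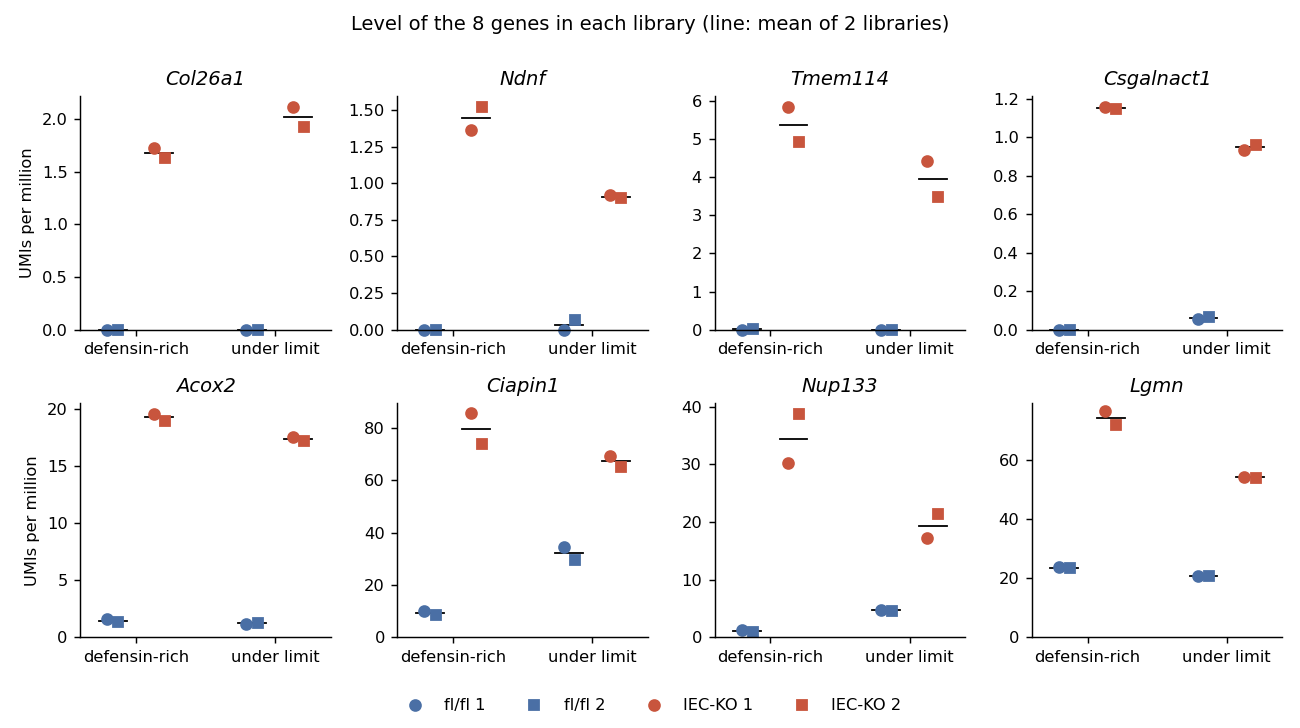
CPM (linear axis from 0) of each gene in the 2 fl/fl (blue) and 2 IEC-KO (red) libraries, in defensin-rich cells and in cells under the 25% limit; points are libraries and lines their means. In each panel both IEC-KO points lie above both fl/fl points in both sets of cells. The same held for 62.8% of 17809 genes in defensin-rich cells and 18.2% of 17712 genes under the limit. Ciapin1 and Nup133 are lower in the defensin-rich than in the other cells of fl/fl but higher there in IEC-KO.

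The limit at 25% is a choice, and the genes did not step at it. In IEC-KO cells just inside it, with a defensin share of 25 to 30%, Nup133 had 34.8 and 42.4 CPM, and just outside it, at 20 to 25%, 29.5 and 38.7. For Tmem114 the values were 8.85 and 8.56 inside and 7.84 and 6.45 outside, and for Col26a1 1.74 and 2.24 inside and 2.21 and 1.16 outside. The limit cut through cluster 1, the IEC-KO Paneth-like cluster with the higher levels of most of the genes, of which 48.9% were defensin-rich. Cells under the limit thus still held Paneth-like cells in IEC-KO (16.3% and 13.4% of them) and few in fl/fl (1.16% in each).

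The first question was whether the genes also differed between genotypes in cells that were not defensin-rich. This contrast is not fully independent of the choice. Cells under the limit held Paneth-like cells, as given above, and may hold RNA from lysed cells, as taken up below. In cells under the defensin limit, Acox2, Ciapin1, Nup133 and Lgmn were called higher in IEC-KO by the quasi-likelihood test of edgeR with Benjamini-Hochberg adjustment over 12476 genes, where 34.9% of genes were called and 17.1% were higher. With TMM 2129 genes were higher and 2231 lower, and with library size only 1098 and 4388, and the calls of these 4 genes held. Col26a1, Ndnf, Tmem114 and Csgalnact1 passed the filter on low counts only through the IEC-KO libraries, so their calls are not counted here. Col26a1 had 0 and 0 UMIs in fl/fl against 104 and 122 in IEC-KO, at least 22.2-fold higher, and Tmem114 had 0 and 0 against 217 and 221, at least 42.9-fold higher. Ndnf had 0 and 1 UMI against 45 and 57, a ratio of 30.0 (5.27 to 1197, counting error). Csgalnact1 had 1 and 1 against 46 and 61, a ratio of 15.7 (4.25 to 132).

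The other 4 genes had counts in both genotypes in these cells. The cell make-up under the limit differed between genotypes, with 1547 and 1212 cells in fl/fl and 7271 and 6659 in IEC-KO. Proliferating cells, called TA-like below, numbered 634 and 518 in fl/fl and 1316 and 1294 in IEC-KO. Cluster 7, described below, held 6 and 4 fl/fl cells and 680 and 722 IEC-KO cells. The part of this make-up in the fold changes that follow was not tested. Acox2 stood at 1.17 and 1.26 CPM in fl/fl and 17.6 and 17.3 in IEC-KO, a log2 fold change of 4.02 ± 0.14 (SE, edgeR adjusted p = 1.1e-13). Nup133 stood at 4.79 and 4.56 against 17.2 and 21.3 (2.22 ± 0.13, edgeR adjusted p = 1.7e-10). Lgmn (20.6 and 20.7 against 54.3 and 53.9 CPM) rose by 1.57 ± 0.07 and Ciapin1 (34.5 and 29.7 against 69.3 and 65.2) by 1.24 ± 0.08 on the log2 scale, with edgeR adjusted p of 4.3e-12 and 4.7e-10. With the Paneth-like clusters left out as well, these 4 were again called higher, where 30.0% of genes were called and 15.2% were higher, and the log2 fold changes were smaller: 3.59 for Acox2, 1.66 for Nup133, 1.11 for Lgmn and 0.86 for Ciapin1.

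Ciapin1 and Nup133 changed places between the sets of cells. In fl/fl they were scarcer in defensin-rich cells than in the others, Nup133 at 1.18 and 0.98 against 4.79 and 4.56 CPM and Ciapin1 at 10.2 and 8.43 against 34.5 and 29.7. In IEC-KO they were more abundant in defensin-rich cells, Nup133 at 30.2 and 38.7 against 17.2 and 21.3 and Ciapin1 at 85.7 and 73.8 against 69.3 and 65.2. Acox2 showed no such order in fl/fl, at 1.57 and 1.33 against 1.17 and 1.26. The make-up of the cells under the limit differed between genotypes, as given above, and its part in these orders was not tested. Whether the change with genotype differed between the sets of cells was not tested, since the defensin-rich contrast had chosen the genes.

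Proliferating cells, called TA-like after the transit-amplifying cells of the crypt, held more Nup133 than the other large classes in fl/fl. It had 8.27 and 6.99 CPM there against 1.24 and 1.38 in goblet-like, 1.48 and 1.28 in enterocyte-like and 1.11 and 0.97 in Paneth-like cells. In IEC-KO TA-like cells it had 17.8 and 21.0, a rise of 1.22 ± 0.15 on the log2 scale (edgeR adjusted p = 4.2e-07). Acox2 rose by 2.88 ± 0.30, Lgmn by 0.92 ± 0.11 and Ciapin1 by 0.71 ± 0.09, with edgeR adjusted p of 4.8e-08, 2.1e-07 and 9.8e-07. Tmem114 was the fifth gene tested, with 0 and 0 UMIs in fl/fl against 12 and 18 and a level at least 7.44-fold higher, and it had passed the filter only through IEC-KO. Of 10954 genes tested in TA-like cells, 9.20% were called and 5.34% were higher. TA-like cells were taken by cluster and not by the defensin limit. Of TA-like clusters 6 and 10, 8.19% and 2.61% of cells were defensin-rich, so this contrast shares some cells with the choice of the genes. Col26a1, Ndnf and Csgalnact1 were too scarce to be tested, with at most 1 UMI in fl/fl and 16 and 11, 7 and 7, and 4 and 8 UMIs in IEC-KO.

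In goblet-like cells, the mucus-secreting relatives of Paneth cells, Acox2, Nup133, Ciapin1 and Lgmn were called higher in IEC-KO, where 17.4% of 10958 genes were called and 8.82% were higher. Their libraries did not overlap between genotypes, and 36.3% of genes had both IEC-KO libraries above both fl/fl libraries. Col26a1, Tmem114 and Csgalnact1 passed the filter only through IEC-KO, so their calls are not counted, and Ndnf, with 0 UMIs in fl/fl and 9 and 11 in IEC-KO, did not pass it. Acox2 went from 1.49 and 1.10 to 14.3 and 15.5 CPM (3.38 ± 0.21, edgeR adjusted p = 9.3e-11) and Nup133 from 1.24 and 1.38 to 8.93 and 13.4 (2.99 ± 0.30, edgeR adjusted p = 2.1e-07). Ciapin1 rose by 0.92 ± 0.09 and Lgmn by 0.48 ± 0.09 on the log2 scale. Most fl/fl goblet-like cells (443 and 361) were in cluster 8, and most IEC-KO ones in clusters 4 and 5, so different clusters were compared. Goblet-like cells were taken by cluster and not by the defensin limit. Of clusters 4, 5 and 8, 0.13%, 8.72% and 0.37% of cells were defensin-rich, so this contrast shares some cells with the choice of the genes. Among the leading genes of cluster 5 were Ccl9, Cd74 and H2-Aa, genes also known from immune cells. Within cluster 8 alone, an alternative added after the values were seen, only Nup133 of the 4 genes tested was called (2.23 ± 0.42, edgeR adjusted p = 0.0052), while Acox2 (1.52 ± 0.45, edgeR adjusted p = 0.082), Ciapin1 and Lgmn (0.02 ± 0.19) were not.

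Within the IEC-KO libraries the genes fell into different patterns across clusters, as the plot by cluster shows. The 8 genes, Try5, Trib3 and the genes of the study's own lists had been left out when the clusters were made, so cluster 1 was not formed by them. All 8 genes were higher in cluster 1 than in cluster 3, the other large Paneth-like cluster of IEC-KO, in both libraries. The share of all genes for which this held was not counted. The median defensin share was 24.8% in cluster 1 and 36.9% in cluster 3, and the CPM of all other genes depends on it. The order is therefore not read as a trait of the 8 genes. Tmem114 had 10.5 and 8.90 CPM in cluster 1 and 5.39 and 4.24 in cluster 3, and Lgmn had 112 and 104 against 67.1 and 64.7. Cluster 1 held 2032 and 1932 IEC-KO cells and only 13 and 8 fl/fl cells, and its leading genes included Reg4, Lgmn, Nup133, Ciapin1 and the stress genes Ddit3 and Trib3. Since clusters are groups of the same cells, these differences were not tested.

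Col26a1 and Acox2 stood highest outside the Paneth-like clusters. Col26a1 had 7.70 and 5.23 CPM in cluster 12 (16 and 17 UMIs) and 5.38 and 5.26 in cluster 7 (25 and 36 UMIs). It had 2.12 and 2.15 CPM in cluster 1 and 1.57 and 1.45 in cluster 3. Acox2 had 54.4 and 53.3 in cluster 12, 34.9 and 32.5 in cluster 1 and 20.6 and 18.4 in cluster 7. Cluster 12 is goblet-like by its markers, held 361 and 399 IEC-KO cells and no fl/fl cell, with no goblet marker among its 10 leading genes, of which Sprr2a3 was the first. Cluster 7 took no name, as Tac1 of the enteroendocrine markers and no goblet marker stood among its leading genes. It had 9 goblet markers and 1 enteroendocrine marker raised, the same numbers as cluster 12, and its cells were left out of the goblet-like contrast. Trib3 was also highest in these clusters, with 189 and 179 CPM in cluster 12 and 179 and 165 in cluster 7, against 126 and 107 in cluster 1.

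**Figure D2:**
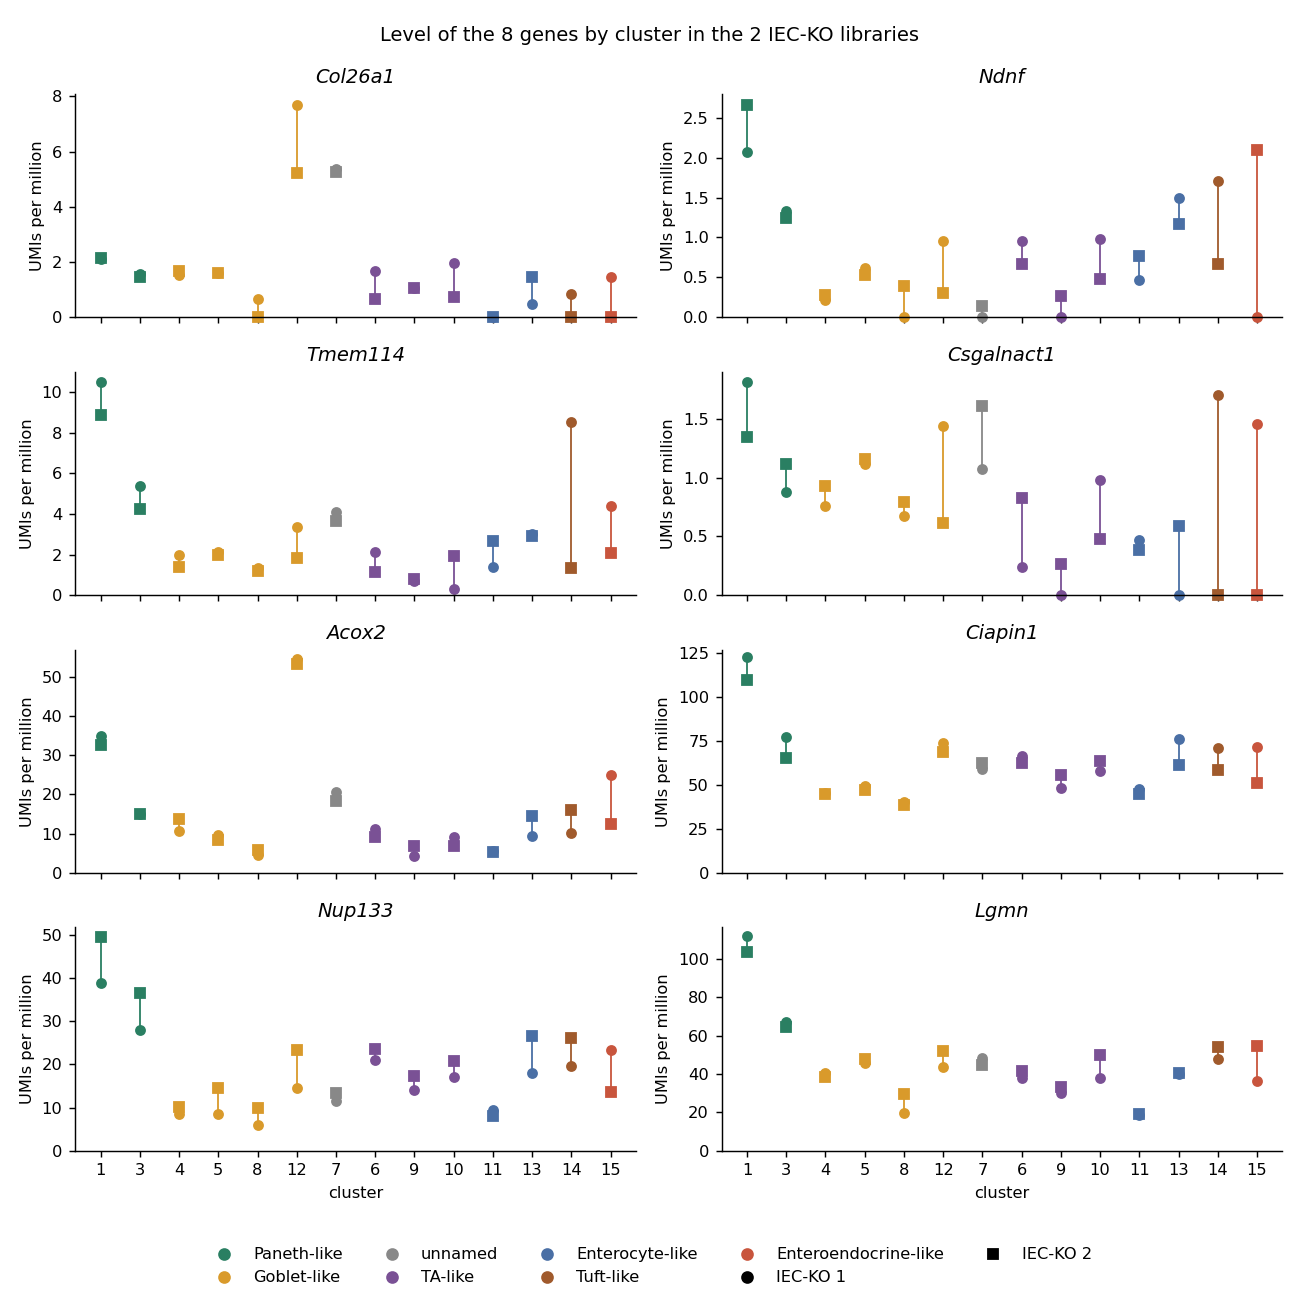
CPM (linear axes from 0) of each gene in the clusters with at least 50 cells in both IEC-KO libraries, joined points being the 2 libraries and colours the cell class. Acox2 peaks in goblet-like cluster 12, and Tmem114, Nup133, Ciapin1 and Lgmn in Paneth-like cluster 1. Col26a1 is highest in cluster 12 in IEC-KO 1, and in IEC-KO 2 stands at 5.26 CPM in unnamed cluster 7 and 5.23 in cluster 12.

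RNA set free from lysed cells can give droplets some UMIs of abundant Paneth transcripts. Levels outside Paneth-like cells were therefore set beside those of Try5 and of the Paneth markers. The amount of such RNA was not measured, and these levels may also hold transcripts of the cells themselves. The median defensin share was 9.66% in goblet-like cluster 5, and 3.23%, 4.39% and 3.04% in goblet-like clusters 4, 8 and 12. In goblet-like cells of the IEC-KO libraries, the 14 Paneth markers together had 28.1% and 31.3% of their Paneth-like level, Try5 20.4% and 28.5%, Tmem114 28.1% and 27.3%, Ndnf 26.5% and 22.1% and Nup133 27.4% and 32.3%. The shares were higher for Lgmn (48.5% and 54.0%), Ciapin1 (51.3% and 58.3%), Acox2 (60.9% and 70.2%), Csgalnact1 (76.2% and 80.7%) and Col26a1 (117% and 110%). Tmem114, Ndnf and Nup133 therefore ran near the level of the Paneth markers in goblet-like cells of IEC-KO, and no use of these genes by goblet-like cells is read from it, the goblet-like calls of Tmem114 and Nup133 included. In all cells under the limit outside Paneth-like clusters, Tmem114 had 29.8% and 31.7% and Ndnf 30.9% and 27.1% of their Paneth-like level. Beside these, Try5 had 23.5% and 33.6% and the Paneth markers 23.6% and 26.3%. The same limit thus holds for the values of Tmem114 and Ndnf over these cells as a whole. In cluster 7 alone, Tmem114 had 4.09 and 3.65 CPM (19 and 25 UMIs), against 7.51 and 6.07 in Paneth-like cells. The Paneth markers had 78855 and 87531 CPM in cluster 7, against 302504 and 311026 in cluster 1 and 386296 and 369719 in cluster 3. Whether cluster 7 cells use Tmem114 was not tested. In TA-like cells Tmem114 was at 15.8% and 21.3% and Try5 at 21.4% and 42.3%. The Tmem114 call there is therefore not read as use either. Nup133 was at 54.8% and 50.6% there, but fl/fl TA-like cells also held it, so this share cannot separate its rise from RNA of lysed cells. The part of such RNA in the rises of Acox2, Ciapin1, Nup133 and Lgmn outside Paneth-like cells was not tested. Col26a1 had 0.14 and 0.12 UMIs for each Try5 UMI in goblet-like cells against 0.02 and 0.03 in Paneth-like cells, while Tmem114 had 0.14 and 0.10 against 0.10 and 0.11, so the first ratio differed between the classes and the second hardly did. In enterocyte-like cells of IEC-KO, where Try5 had 31.7% and 35.2% of its Paneth-like level, Ciapin1 had 63.7% and 65.6% and the counts of the 4 scarce genes, between 1 and 17 UMIs a library, were too few to read.

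Other cell types were checked by their markers in the defensin-rich cells. Col1a1, Col3a1 and Dcn of fibroblasts and Sox10 of glia had 0 UMIs in every library, and the 9 stroma and vessel markers summed to 0.61 and 0.75 CPM in fl/fl and 1.13 and 1.18 in IEC-KO, with 7 of 9 at 0 in each library. The 9 acinar pancreas markers summed to 11.5 and 11.3 CPM in fl/fl and 27.0 and 22.8 in IEC-KO. Cela1 held most of these UMIs, with raw counts of 1050 and 1126 in fl/fl and 1022 and 1397 in IEC-KO. The totals were 95582378 and 104203887 UMIs in fl/fl and 38820168 and 63735814 in IEC-KO, so Cela1 was higher in IEC-KO relative to all UMIs. Cpa1, Cela2a, Prss2 and Cel were at 0 in every library. The 15 goblet markers summed to 45692 and 40918 in fl/fl and 57351 and 60863 in IEC-KO, and the 9 stem cell markers to 63.7 and 61.6 against 98.0 and 105. Lower in IEC-KO were the 17 enterocyte markers (1461 and 1372 against 822 and 967) and the 9 immune markers (37.8 and 29.3 against 16.9 and 13.2), of which Cd3e, Cd3g and Cd8a were at 0 in every library. The part of these transcripts in the differences of the 8 genes was not tested.

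The second question was whether the genes went together with Try5 in the same cells. Each IEC-KO defensin-rich cell was called Try5-positive if a random 3500 of its UMIs held Try5, which made 320 of 2733 and 337 of 2985 cells positive at nearly equal depth (medians of 12754 and 18441 UMIs against 12555 and 18649.5). Acox2, Ciapin1, Nup133 and Lgmn were higher in the positive cells, where 0.640% of 10941 genes were called and 0.274% were higher. Acox2 had 26.4 and 24.7 CPM in positive and 18.7 and 18.3 in negative cells, a log2 fold change of 0.45 ± 0.10 (edgeR adjusted p = 0.00077). Ciapin1 had 109 and 93.7 against 82.5 and 71.4 (0.39 ± 0.05, edgeR adjusted p = 5.4e-13). Lgmn had 94.3 and 92.0 against 73.9 and 69.2 (0.38 ± 0.05, edgeR adjusted p = 1.9e-11), and Nup133 34.1 and 49.0 against 29.7 and 37.5 (0.32 ± 0.07, edgeR adjusted p = 0.0020). Each of the 4 was higher in positive cells of both libraries, as 21.1% of genes were. The calls depended on how cells were split: with the call made without thinning only Ciapin1 was called and the median log2 fold change of the 8 genes fell from 0.38 to 0.11, and with thinned counts summed none of 6 tested was called, at a median of 0.34. DESeq2 called Ciapin1 and Lgmn, and with doublets left out Nup133 had an edgeR adjusted p of 0.0504.

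The 4 scarce genes were not called in this split. Ndnf was at 2.42 and 2.28 CPM in positive against 1.23 and 1.43 in negative cells (0.78 ± 0.34, edgeR adjusted p = 0.56). Tmem114 was higher in positive cells of 1 library and not of the other (9.02 and 4.57 against 5.43 and 4.95, 0.29 ± 0.19), as was Col26a1 (1.98 and 1.57 against 1.69 and 1.64). Csgalnact1 went the opposite way in the 2 libraries (0.88 and 2.28 against 1.20 and 1.00). Cells with both a Try5 and a Tmem114 UMI at 3500 UMIs numbered 9 and 6, where independent detection would give 6.32 and 6.55, so no excess was detectable at this depth. Trib3 itself was not called in the split (0.06 ± 0.05).

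Split by Trib3 instead, 678 and 652 cells were positive. Acox2 was at 26.0 and 23.4 CPM in positive against 17.6 and 17.8 in negative cells (0.38 ± 0.07, edgeR adjusted p = 0.00022). Ciapin1 was at 110 and 88.7 against 78.2 and 69.9 (0.33 ± 0.04, edgeR adjusted p = 2.8e-11), and Lgmn at 93.2 and 86.7 against 71.1 and 67.8 (0.29 ± 0.04, edgeR adjusted p = 6.3e-09). Each was higher in both libraries, as 34.2% of genes were, and of 11016 genes 1.43% were called and 0.635% were higher. Nup133 was not called (33.9 and 42.7 against 29.1 and 37.7, 0.12 ± 0.06, edgeR adjusted p = 0.49), and neither were Col26a1, Ndnf, Tmem114 or Csgalnact1, with log2 fold changes from 0.11 to 0.39. Try5 was higher in Trib3-positive cells by 0.43 ± 0.04 on the log2 scale.

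Both splits moved with the clusters. Cells of cluster 1 were 39.7% and 37.7% of Try5-positive against 31.4% and 35.1% of Try5-negative cells, and 41.7% and 45.7% of Trib3-positive against 29.3% and 32.5% of Trib3-negative cells, and the part of cluster 1 in these calls was not tested. The calls need the library as a term, since without it 0 of 8 genes were called in either split by edgeR (389 and 368 of all genes had an unadjusted p under 0.05), and with it the 2 libraries leave 1 residual degree of freedom, so the spread is borrowed across genes. At a limit of 40% defensins none of 5 genes tested was called in either split.

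**Figure D3:**
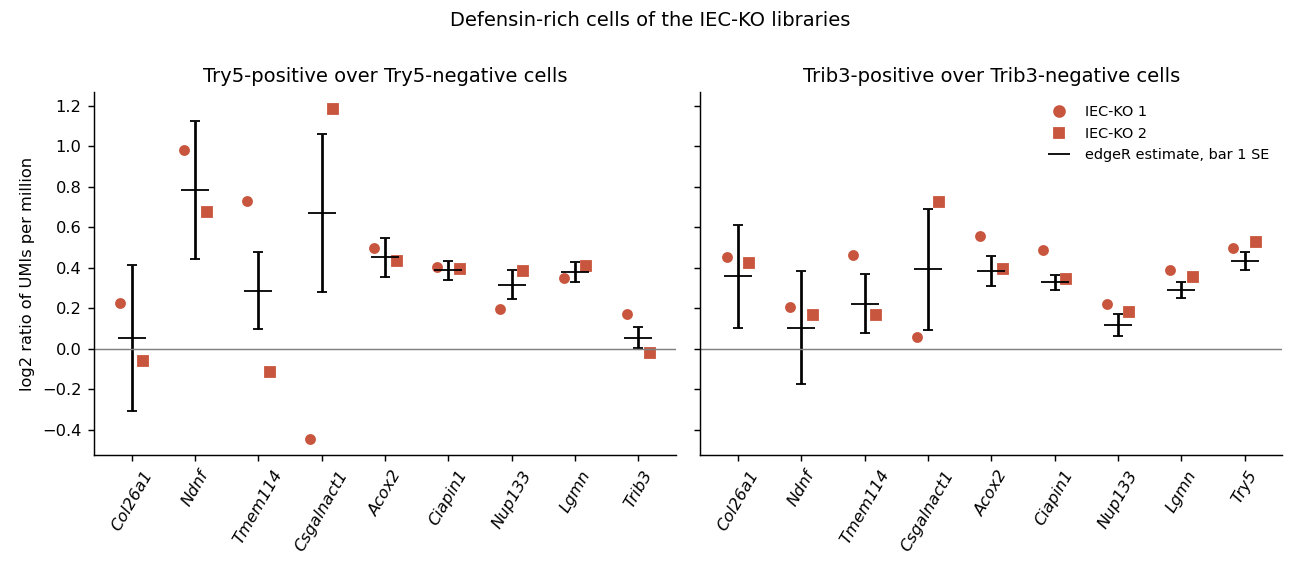
Log2 ratio of CPM between cells with and without Try5 (left) or Trib3 (right) among defensin-rich cells of the IEC-KO libraries; red points are the 2 libraries and black bars the edgeR estimate with 1 standard error. Acox2, Ciapin1, Nup133 and Lgmn are above 0 in both libraries of both splits, while Csgalnact1 and Tmem114 scatter widely in the Try5 split.

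The genes were next set beside the other genes of their pathways in the defensin-rich contrast, given as counts of calls. Of 9 other genes of the Nup107-160 complex, Nup160 alone rose (0.48, from 0.70 and 0.72 to 1.70 and 1.52 CPM) and Sec13, also a part of the COPII coat, fell by 0.58. The median of the 9 was 0.01, and of all genes 0.00. Scaled by library size only, 7 of the 9 were called higher and Sec13 was not called, where 9383 of all 12659 genes were called higher.

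Of 14 other genes of peroxisomal oxidation, 9 fell and 1 rose, where 21.3% of all genes tested were called lower and 21.2% higher. The thiolase gene Acaa1b fell by 2.44, from 134 and 148 UMIs in fl/fl to 17 and 26 in IEC-KO, and this held under scaling by library size only (-1.75). The transporter and acyl-CoA synthetase gene Slc27a2 fell by 0.77 and the racemase gene Amacr rose by 0.46. With library-size scaling only 1 gene of the list was lower and 7 were higher, where 433 and 9383 of 12659 genes were, and Slc27a2 was not called. The median of the list was -0.33 with TMM.

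Of 10 other genes of cytosolic iron-sulfur assembly, 3 rose and 1 fell, by small amounts: Glrx3 by 0.23 and Bola2 by 0.22, both partners in iron-sulfur cluster handling, while Narfl fell by 0.32. With library-size scaling all 10 were called higher, as were 9383 of all 12659 genes. Of 12 lysosomal cysteine proteases and cystatins, 5 rose and 4 fell. The cathepsin genes Ctsc (1.83, from 4.76 and 4.41 to 26.0 and 26.4 CPM) and Ctsl (1.42) rose. Ctss, another cathepsin, fell by 1.43, and Cst6, a cystatin that inhibits legumain, fell by 1.25, from 18.6 and 18.6 to 11.4 and 13.7 CPM. Both were also called lower with library-size scaling.

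The lists around the scarce genes held few genes at testable levels. Of 20 genes of chondroitin sulfate synthesis 11 were tested, and Fam20b rose by 0.51 while the sulfotransferase gene Chst12 fell by 1.18 and Chpf2 by 0.64. With library-size scaling 7 of the 11 were higher, as were 9383 of all 12659 genes, and neither Chst12 nor Chpf2 was called. Of 20 collagens and EMI-domain genes only 5 were tested, with Col20a1 up by 1.27 and Col16a1 down by 1.11, in both scalings. Of 11 claudin relatives tested 3 rose and 4 fell, with Emp2 (1.31) and Cldn2 (0.75) up and Pmp22 (-1.40) and Emp1 (-1.28) down, and these 4 kept their directions with library-size scaling. No list around a scarce gene moved to one side with TMM.

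The targets of ATF4 did. All 21 tested were higher in IEC-KO defensin-rich cells, with a median log2 fold change of 1.67, led by Trib3 (6.61) and Atf5 (4.35). Trib3 went from 0.60 and 0.37 to 81.5 and 70.5 CPM. Within the IEC-KO libraries, 1 of 21 was called higher in Try5-positive cells in both scalings. In Trib3-positive cells 2 of 20 were called higher with TMM and 9 of 20 with library size only, where 70 and 473 of all 11016 genes were. None of the genes in the 7 other lists was called in either split with TMM, and with library size only 4 of 12 lysosomal proteases and cystatins were called higher in Trib3-positive cells.

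**Figure D4:**
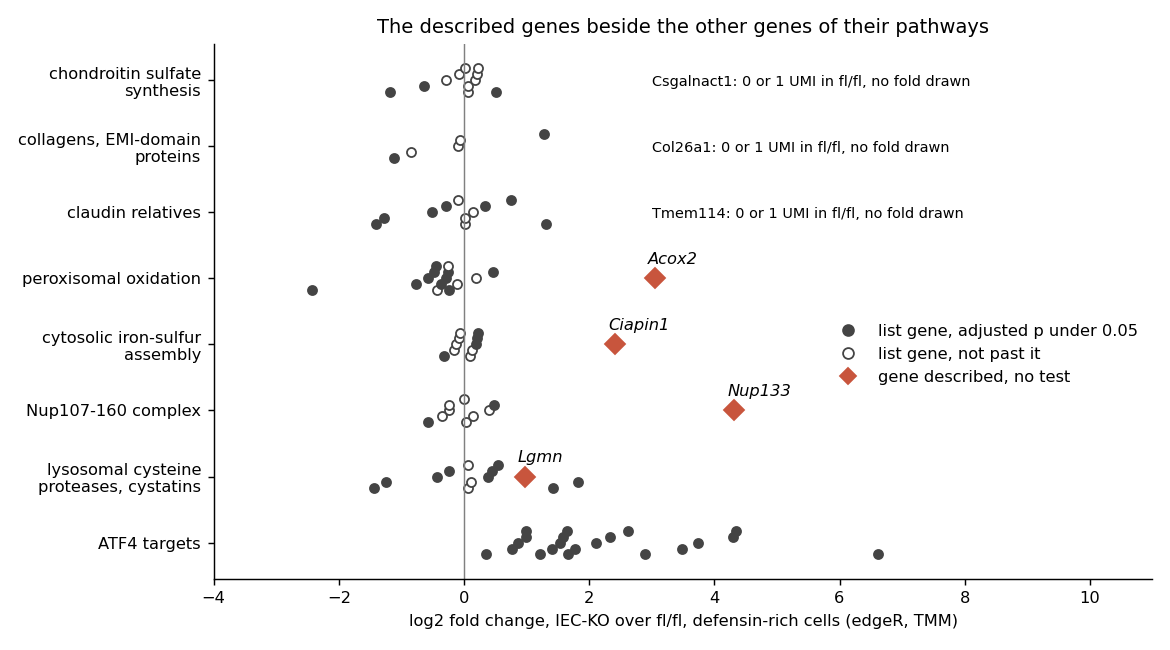
Log2 fold change of IEC-KO over fl/fl in defensin-rich cells (edgeR, TMM) for the genes of each list, filled where called, with Acox2, Ciapin1, Nup133 and Lgmn as diamonds. All 21 ATF4 targets lie above 0, while the other lists spread to both sides; the diamonds were chosen for their place on this axis.

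Genes with the most similar pattern were found by Pearson r of log2(CPM + 1) over 48 cluster-by-library sums, with r over the 28 IEC-KO sums beside it, as a description. The sums share libraries and genotype, so the points are not independent. For Tmem114 the nearest gene was Try5 (0.92 and, in IEC-KO, 0.72), and for Nup133 it was Ciapin1 (0.88 and 0.84) and then Try5 (0.88 and 0.83). Acox2 was nearest to Ddit3, which encodes the stress factor CHOP (0.95 and 0.93), and Lgmn to Reg4 (0.93 and 0.94), a secreted lectin-like protein. Ciapin1 was nearest to Spg21 (0.91 and 0.82). The nearest genes of the other 3 were Ciart (0.87 and 0.77) for Col26a1, Slc7a3, a cationic amino acid transporter gene (0.82 and 0.60), for Csgalnact1 and Car5a (0.80 and 0.70) for Ndnf.

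Csgalnact1, Ciapin1 and Nup133 lie on the chromosome of Slc7a5. In GENCODE M21 (GRCm38), Nup133 (minus strand, chr8:123897123-123949265) is 1.99 Mb from Slc7a5 (minus strand, chr8:121881150-121907694), Ciapin1 (chr8:94819804-94838358) 27.04 Mb and Csgalnact1 (chr8:68356781-68735146) 53.15 Mb. Ciapin1 overlaps Coq9 on the opposite strand by 38 bases, and Coq9 had 13.1 and 11.6 CPM in fl/fl and 22.1 and 20.7 in IEC-KO defensin-rich cells. Gm20388, annotated across both Nup133 and Slc7a5 on the opposite strand, had 0 UMIs in the defensin-rich cells of all libraries.

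Promoter windows of 300 bases were listed for 5 of the 8 genes, 7 windows in all (RefSeq, GRCm38.p6). The motif TGATGNAA, to which ATF4 binds as a dimer with C/EBP proteins, was in none of the 7 on either strand, and in 3.97% of 32851 promoters. For Trib3 it was found 14 bases after the start, as TTACATCA, in the stretch chr2:152344028-152344057 (minus strand) printed below for comparison. CAGCTG, an E box, was in the Ciapin1 window, 144 bases before the start, and in 1 of the Lgmn windows, and in 16.3% of all promoters. ATCAAAG, a motif of TCF and LEF factors, was in none of the 7 and in 3.73% of all. TGACGTCA, a motif of the CREB and ATF family that was searched only after the windows had been read, was found 124 and 67 bases before the start of Nup133, and in 1.79% of all promoters. The upstream 250 bases of Nup133 (chr8:123949266-123949515) and Ciapin1 (chr8:94838341-94838590), both on the minus strand, are printed 5′ to 3′ with these matches in capitals. A match is a run of letters, not a site of binding.
Trib3: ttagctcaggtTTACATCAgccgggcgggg
Nup133: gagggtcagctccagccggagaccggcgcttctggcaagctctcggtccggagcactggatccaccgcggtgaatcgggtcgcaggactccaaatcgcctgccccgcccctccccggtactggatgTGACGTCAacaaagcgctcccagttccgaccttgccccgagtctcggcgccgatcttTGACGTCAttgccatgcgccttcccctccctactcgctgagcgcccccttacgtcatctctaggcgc
Ciapin1: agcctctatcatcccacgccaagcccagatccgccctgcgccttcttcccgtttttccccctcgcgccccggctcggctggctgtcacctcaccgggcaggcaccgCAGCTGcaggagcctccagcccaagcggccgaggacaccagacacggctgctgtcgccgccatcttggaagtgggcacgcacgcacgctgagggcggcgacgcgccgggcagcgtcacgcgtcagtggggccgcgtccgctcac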

How the data were processed

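The authors deposited 1 matrix of UMI counts per gene and cell for each of the 4 libraries, as raw counts made with Cell Ranger against mm10; the submitters' processing notes name version 2.1.1. All deposited cells were used, and doublets were kept in the main results (simulated doublets were removed in an alternative). The 8 genes and all gene lists were chosen with earlier results of these data known. The named genes are these 8, Try5, Trib3 and Slc7a5, the 2 most similar genes of each, and up to 2 called genes per direction and list.

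Cells were normalised to 10000 UMIs and clustered (scanpy 1.11.5, 2000 variable genes, 30 principal components, 20 neighbours, Leiden resolution 1) without 847 genes, namely the 8, Try5, Trib3 and the genes of lists the study gives, and clusters were named from listed markers. Counts were summed per library and set of cells and tested with edgeR 4.0.16 in R 4.3.3 (TMM, filterByExpr, quasi-likelihood F test, adjusted p under 0.05 over all genes). Splits by Try5 or Trib3 thinned each cell to 3500 UMIs for the call and had the library as a term. Levels are CPM, UMIs per 1000000 of the set. Counting intervals are exact, at 95%. The test was checked on simulated counts. Alternatives included DESeq2 1.42.0, other scalings, filters and limits, and leaving out each library.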

Additional observations from a re-analysis of the deposited data

How the results depend on the processing

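Depth limits the scarce genes: Col26a1, Ndnf and Csgalnact1 had at most 122 UMIs in the defensin-rich or in the other cells of a library, and 2 libraries a genotype leave the spread between mice unknown. The number of genes called changed with the setting. In defensin-rich cells it was 5369, 9816 with scaling by library size only (9383 higher and 433 lower, against 2678 higher with TMM), 3474 with DESeq2 and 2662 at a limit of 40%. Under the limit it was 4360 and 2706 with DESeq2. In goblet-like cells it was 1910, 880 with DESeq2 and 291 in cluster 8 alone, where 1 of the 8 genes was called. In TA-like cells it was 1008, 1800 with library size only and 351 with DESeq2. Without 1 library at a time the numbers ran from 4281 to 4978, 3189 to 4005, 1125 to 1929 and 510 to 1428 in these 4 comparisons. Calls of the 8 genes are not counted in these fits, as 4 of the 8 passed the filter on low counts only through IEC-KO. With library size only the calls were 1098 higher and 4388 lower under the limit (TMM 2129 and 2231), 1873 and 499 in goblet-like (TMM 966 and 944), 1597 and 203 in TA-like cells (TMM 585 and 423) and 473 and 36 in the Trib3 split (TMM 70 and 88). The median shift of all genes with library size only was 0.68, -0.18, 0.12 and 0.13 (log2).

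In the Try5 split 70 genes and 4 of the 8 were called. The numbers were 20 and 2 with DESeq2, 108 genes with at least 2 UMIs for a positive call, 45 and 1 with the call made without thinning, 20 and 0 with thinned counts summed, and 0 and 0 at a limit of 40% or without the library term. In the Trib3 split 158 genes and 3 of the 8 were called, with 509 genes by library size only, 37 with DESeq2, 88 with at least 2 UMIs, 97 without thinning, 398 in Paneth-like clusters, 52 and 1 with thinned counts summed, 12 and 0 at a limit of 40% and 0 and 0 without the library term. Nup133 in the Try5 split had an edgeR adjusted p of 0.0504 with doublets left out, and Csgalnact1 in goblet-like cells 0.15 without fl/fl replicate 1. The cause of these changes was not tested.

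Some directions turned. The share of defensin-rich cells with an Lgmn UMI was 14.5 percentage points higher in IEC-KO at 3500 UMIs and -0.33 without thinning. In the Try5 split Col26a1 was at -0.26 with at least 2 UMIs, -0.087 in Paneth-like clusters and -0.062 without IEC-KO replicate 1 and 0.23 without replicate 2. Tmem114 was at -0.52 at a limit of 40% and -0.12 without IEC-KO replicate 1 (0.73 without replicate 2), and Csgalnact1 at -0.061 without thinning and -0.44 without IEC-KO replicate 2 (1.19 without replicate 1). In the Trib3 split Ndnf was at -0.66 and Csgalnact1 at -1.86 with at least 2 UMIs, and Tmem114 at -0.42 and Acox2 at -0.12 at a limit of 40%. Under the limit, Acox2, Ciapin1, Nup133 and Lgmn kept their direction in all their repeats, among the 104 made over the 8 genes. Col26a1, Ndnf, Tmem114 and Csgalnact1 had almost no UMIs in fl/fl there and could hardly turn. Neither their directions nor their calls are counted.

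The median over the 8 genes of the difference in the share of cells with a UMI was 4.69 percentage points, 5.22 without thinning, 2.52 at 2000 UMIs, 4.52 with another seed, 4.94 at a limit of 15%, 2.87 at 40%, and 4.65 to 4.73 without 1 library at a time. Libraries share replicate numbers 1 and 2 between genotypes. Deviations of same-numbered libraries had correlations of 0.00 to 0.05, which with 2 libraries a genotype cannot decide whether the numbers pair them. With the replicate block the calls numbered 5532, 4785, 2338 and 1290 in the 4 comparisons, against 5369, 4360, 1910 and 1008 without it. The genes tested numbered 12659, 12476, 10958 and 10954. Acox2, Ciapin1, Nup133 and Lgmn stayed called higher in cells under the limit, goblet-like and TA-like cells. The calls of Col26a1, Ndnf, Tmem114 and Csgalnact1 are not counted, nor is the defensin-rich contrast that chose all 8. DESeq2 gave no adjusted p for Csgalnact1 in goblet-like cells, Tmem114 in TA-like cells, Acox2 and Nup133 in the Try5 split and Acox2 in the Trib3 split.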
